A study of Homo sapiens with 18 samples.

Results

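Matrix metalloproteases (MMPs) are zinc enzymes that cut collagens, laminins and other matrix proteins, and tissue inhibitors of metalloproteases (TIMPs) are small secreted proteins that bind and block them. Most MMPs are made as inactive proenzymes, and several of their genes respond to growth factors and cytokines in carcinoma cells. Loss of the epithelial state, or epithelial to mesenchymal transition (EMT), is commonly described together with matrix remodelling by these enzymes. The set described here held 10 genes given by name, among the 20046 genes tested. It comprised the MMP genes MMP1, MMP2, MMP7, MMP9, MMP10, MMP13 and MMP14 and the inhibitor genes TIMP1, TIMP2 and TIMP3. The platform annotation assigned 12 probes to them, 2 each for MMP7 and TIMP2 and 1 for each other gene, and all 10 genes passed into the tests because no gene was removed for low signal.

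Expression was measured on 18 Illumina bead arrays of HCC827, a human lung adenocarcinoma line with mutant EGFR that all groups share. Parental cells (3 arrays) were the control of TGFB1-treated cells (3 arrays), for which the sample labels state 30 days and the series text 72 hours at 10 ng/mL. Cells with the pLX303-lacZ virus (3 arrays) were the control of SNAIL-V5 cells (3 arrays, whose titles also carry pLX303-lacZ), and pLKO1 non-target hairpin cells (shNT, 3 arrays) were the control of pLKO1 CDH1 hairpin cells (shCDH1, 3 arrays). Labels name 1 hairpin group per target, do not say whether infected cells were pools or clones, and do not say that the arrays of a group came from separate cultures, so p-values measure a spread that may be technical. Titles number the arrays of each group 1 to 3, while the sample descriptions number them 1, 1 and 2. What the description number stands for is not stated.

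Levels below are normalized log2 intensities of 1 probe per gene, and a level of one gene cannot be set against that of another. Changes are log2 differences ± SE with 3 arrays per group from 1 limma model of all 18 arrays, and a gene was called when its Benjamini-Hochberg adjusted p over all 20046 genes was below 0.05. Median intensity ran from 152 to 236 between arrays, and arrays of a group correlated at r = 0.989 to 0.994 across probes. The array-wide median level was 6.82. No detection calls were used, so a level near or under 6.82 cannot be told from background, and the fold size of a gene that crosses it depends on the background correction. Signs are relative to the bulk of genes: with unnormalized arrays the all-gene median under TGFB1 was -0.22, and 17.0% of its calls were upward instead of 49.6%. CDH1, the hairpin's target, stood at 13.00 ± 0.05 (SD, n = 3) in shNT and 8.60 ± 0.40 in shCDH1 cells, and at 13.12 ± 0.03 in lacZ and 7.50 ± 0.04 in SNAIL cells. Under TGFB1 it stayed high, at 12.69 ± 0.09 beside 13.03 ± 0.03 in parental cells (difference -0.35 ± 0.12, limma adjusted p = 0.0317). The SNAI1 probe did not pass between SNAIL and lacZ cells (-0.14 ± 0.14, limma adjusted p = 0.528). Its group means ran from 6.14 in shCDH1 to 6.50 in TGFB1 cells, under the array-wide median in every group. With such levels the probe cannot show whether the virus raised SNAIL. Of 8 lung adenocarcinoma epithelial markers, 8 lay above the array-wide median in parental, lacZ and shNT cells and 7 in TGFB1, SNAIL and shCDH1 cells. Of these markers 6 fell under TGFB1, 8 in SNAIL and 6 in shCDH1 cells, the rest not being called. The all-gene shares called lower were 15.7% under TGFB1, 17.0% in SNAIL and 16% in shCDH1 cells. In such bulk RNA, fewer cells expressing a gene and less RNA per cell cannot be told apart.

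The 10 genes did not move as a block in any of the 3 EMT routes. Under TGFB1, 7 rose, 1 fell and 2 were not called, against backgrounds of 15.5% of all genes called higher and 15.7% called lower. In SNAIL cells 6 rose, 1 fell and 3 were not called, where 19.6% of all genes were higher and 17.0% lower. In shCDH1 cells 1 rose, 3 fell and 6 were not called, where 17.9% of all genes were higher and 16% lower. The median log2 difference of the 10 genes was 0.81 under TGFB1, 0.51 in SNAIL cells and -0.10 in shCDH1 cells, beside all-gene medians of 0.00, 0.01 and 0.01. The 3 arrays of one group lay apart from the other 3 for 8, 7 and 4 of the 10 genes, while this held for 41.5%, 46.8% and 39.2% of all genes. Several patterns could be read from the values: MMP7 fell in all 3 routes, TIMP2 rose in all 3 by its brighter probe, MMP1 and MMP10 rose in TGFB1 and SNAIL cells but fell in shCDH1 cells, and MMP13 and TIMP3 were called in none of the 3. The shCDH1 falls of MMP1 and MMP10 lay between groups near or under the array-wide median. The MMP1 call there changed in 7 of 20 other settings and the MMP10 call in 1 of 20.

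**Figure D1:**
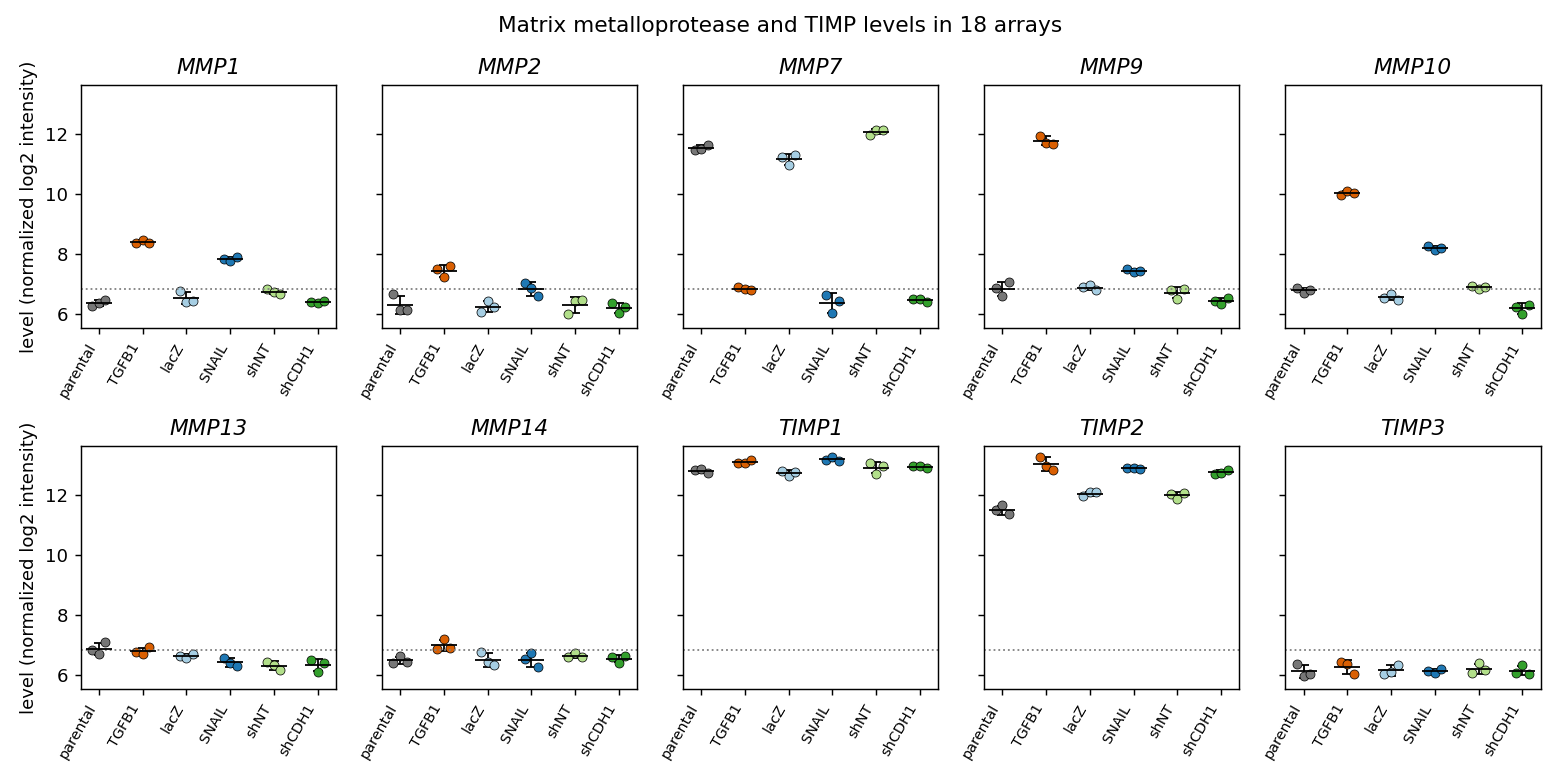
Normalized log2 intensity (vertical axis) of the 10 genes in the 6 groups (horizontal axis). Points are arrays, bars are the mean ± SD of 3 arrays and the dotted line is the array-wide median of 6.82. MMP7 drops to or under that line in TGFB1, SNAIL and shCDH1 cells, MMP9 leaves it in TGFB1 cells (11.77 ± 0.15), and TIMP3 stays under it in every group.

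MMP7 encodes matrilysin, a small MMP without the hemopexin domain that epithelial cells secrete. Its brighter probe (ILMN_2192072) read 11.48, 11.50 and 11.63 in the parental arrays and 6.90, 6.83 and 6.81 in the TGFB1 arrays. In lacZ cells it read 11.23, 10.96 and 11.29, and in SNAIL cells 6.65, 6.01 and 6.44. The shNT arrays gave 11.99, 12.14 and 12.14 and the shCDH1 arrays 6.49, 6.51 and 6.40. Every control array was thus far above every array of the 3 routes, and the levels after each route lay near or under the array-wide median. The log2 difference was -4.69 ± 0.13 under TGFB1 (limma adjusted p = 2.27e-20), -4.79 ± 0.13 in SNAIL cells (6.83e-21) and -5.62 ± 0.13 in shCDH1 cells (3.00e-22). The dimmer probe (ILMN_1685403) gave -4.29 ± 0.13, -4.13 ± 0.13 and -5.32 ± 0.13 in the same comparisons. Since the level after each route cannot be told from background, the size of each fall depends on the control level and the background, and the 3 falls were not ranked. The fitted differences of effects were 0.93 ± 0.18 for TGFB1 minus shCDH1 (adjusted p = 0.000263), 0.83 ± 0.18 for SNAIL minus shCDH1 (0.000811) and 0.10 ± 0.18 for TGFB1 minus SNAIL (0.76). The 2 differences from shCDH1 did not pass without normalization between arrays (0.51, adjusted p = 0.24, and 0.61, adjusted p = 0.197) or on log2 values with only a floor (0.25, adjusted p = 0.503, and 0.59, adjusted p = 0.272). The control cells differed too, MMP7 being higher in shNT than in parental cells (0.55 ± 0.13, adjusted p = 0.00288), which did not pass with median centring (0.42, adjusted p = 0.0554).

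The promoters of MMP7, MMP10 and TIMP1 are shown because MMP7 and MMP10 lie in the same gene cluster on chromosome 11 and moved in opposite directions under TGFB1, while TIMP1 was bright in every group. They are the 250 bases before the annotated start, 5′ to 3′ on the gene's strand, from RefSeq (GRCh38.p14). Capitals mark matches to any of 5 motifs on either strand. AP-1 dimers bind the first, TGANTCA, which reads the same on both strands. ETS factors bind the core AGGAAG, and Sp1 family factors bind the GC box GGGCGG. The TATA box was searched as TATAAA. Snail proteins bind the E-box CAGGTG. No match overlapped another in the 3 sequences.
MMP7 (chr11:102530748-102530997, minus strand): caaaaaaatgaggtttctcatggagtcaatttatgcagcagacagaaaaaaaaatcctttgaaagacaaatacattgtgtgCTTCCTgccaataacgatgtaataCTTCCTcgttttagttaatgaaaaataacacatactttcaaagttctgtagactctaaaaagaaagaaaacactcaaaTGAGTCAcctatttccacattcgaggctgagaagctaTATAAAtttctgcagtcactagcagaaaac
MMP10 (chr11:102780629-102780878, minus strand): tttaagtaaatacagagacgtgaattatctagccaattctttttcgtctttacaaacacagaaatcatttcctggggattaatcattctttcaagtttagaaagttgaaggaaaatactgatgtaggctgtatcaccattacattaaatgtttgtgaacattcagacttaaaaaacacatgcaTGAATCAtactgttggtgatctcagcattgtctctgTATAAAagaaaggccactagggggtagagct
TIMP1 (chrX:47582186-47582435, plus strand): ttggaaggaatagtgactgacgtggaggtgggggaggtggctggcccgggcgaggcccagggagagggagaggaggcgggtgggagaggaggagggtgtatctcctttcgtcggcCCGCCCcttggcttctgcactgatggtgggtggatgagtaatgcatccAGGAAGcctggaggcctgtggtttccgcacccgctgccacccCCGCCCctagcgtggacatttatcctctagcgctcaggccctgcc
MMP7 held TGAGTCA and MMP10 TGAATCA, each with its first base at -67 from the start, and both held TATAAA, at -30 in MMP7 and -31 in MMP10. TIMP1 held no exact match to TGANTCA or TATAAA but held 2 GC boxes, at -135 and -45, and 1 ETS match at -87, while MMP7 held 2 ETS matches. Near matches, such as tgagtaa in TIMP1, were not searched. TGANTCA occurred in 6.57% of the 35116 promoters of the same length, TATAAA in 10.7%, AGGAAG in 28.7%, GGGCGG in 42.6% and CAGGTG in 17.5%. None of the 3 sequences held CAGGTG. Promoters of MMP14 and TIMP3 were also in the table and held GC boxes (1 and 5) but no TGANTCA or TATAAA. A match here describes letters only, and the array data measured no binding.

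MMP9 encodes gelatinase B, which degrades denatured collagen and type IV collagen of basement membranes. Its probe (ILMN_1796316) read 6.87, 6.60 and 7.05 in parental arrays and 11.95, 11.71 and 11.67 in TGFB1 arrays. The lacZ arrays read 6.89, 6.96 and 6.79 and the SNAIL arrays 7.50, 7.41 and 7.43. The shNT arrays read 6.80, 6.49 and 6.84 and the shCDH1 arrays 6.42, 6.32 and 6.52. TGFB1 cells alone held a level far above the array-wide median, SNAIL cells were just above their control, and the shNT and shCDH1 arrays overlapped. The change was 4.94 ± 0.13 under TGFB1 (limma adjusted p = 3.82e-21), 0.57 ± 0.13 in SNAIL cells (0.000598) and -0.29 ± 0.13 in shCDH1 cells (0.0797). The TGFB1 effect exceeded the SNAIL effect by 4.37 ± 0.18 (adjusted p = 1.50e-16) and the shCDH1 effect by 5.23 ± 0.18 (3.53e-18). Over 21 other settings the TGFB1 change ran from 3.79 to 5.44 and was called in each. The shCDH1 change passed with shNT array 2 left out (-0.40, adjusted p = 0.019) and against parental cells (-0.42, adjusted p = 0.0103), and the SNAIL call ended on log2 values with only a floor set at the 5th percentile (0.27, adjusted p = 0.46).

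MMP9 is also a gene of myeloid cells, so their markers were read beside it. Of 7 haematopoietic markers measured, 2 were higher, 1 was lower and 4 were not called under TGFB1, and their summed raw intensity was 6653 to 8982 in parental and 7344 to 10341 in TGFB1 arrays. CSF1R, a macrophage growth factor receptor, rose from 7.97 to 10.66 (2.69 ± 0.14), and CD68, a lysosomal protein of macrophages, from 12.49 to 12.70 (0.21 ± 0.07). CD14, a monocyte surface receptor, fell from 8.72 to 7.22 (-1.50 ± 0.12). PTPRC, which marks all white blood cells, stood under the array-wide median in both groups (6.59 and 6.28), as did the myeloid enzyme gene MPO (6.30 and 6.49). CSF1R stood at 9.16 in lacZ cells, where MMP9 was at 6.88. The same 7 markers gave 1 higher, 1 lower and 5 not called in SNAIL cells and 2, 1 and 4 in shCDH1 cells. Of 8 fibroblast markers, 4 were higher and 4 not called under TGFB1, 4 and 4 in SNAIL cells, and 2 and 6 in shCDH1 cells, and their summed raw intensity was 1434 to 1857 in parental, 1660 to 2685 in TGFB1, 1399 to 1698 in lacZ, 5794 to 6335 in SNAIL, 1231 to 1631 in shNT and 2291 to 2706 in shCDH1 arrays. Of 6 endothelial markers, 2 were higher and 4 not called under TGFB1, and 6 of 6 were not called in either of the other routes, with CDH5 at 5.96 to 6.09 in all groups. The all-gene shares higher and lower were 15.5% and 15.7% under TGFB1, 19.6% and 17.0% in SNAIL and 17.9% and 16% in shCDH1 cells. The part of the haematopoietic, fibroblast and endothelial markers in the changes was not tested.

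MMP2 encodes gelatinase A, which is activated at the cell surface by MMP14 together with TIMP2. The MMP2 probe (ILMN_1762106) read 6.66, 6.13 and 6.14 in parental and 7.49, 7.22 and 7.59 in TGFB1 arrays. It read 6.05, 6.42 and 6.23 in lacZ and 7.03, 6.88 and 6.58 in SNAIL arrays. The groups of each comparison did not overlap, but only TGFB1 arrays were all clearly over the array-wide median. MMP2 rose by 1.12 ± 0.16 under TGFB1 (limma adjusted p = 3.05e-06) and by 0.60 ± 0.16 in SNAIL cells (0.004). In shCDH1 cells the difference was -0.09 ± 0.16 (adjusted p = 0.743), with shNT arrays at 5.98, 6.44 and 6.46 and shCDH1 arrays at 6.35, 6.02 and 6.23. Neither rise passed on log2 values with only that floor (0.31, adjusted p = 0.128, and 0.20, adjusted p = 0.533). The TGFB1 effect was above the shCDH1 effect by 1.22 ± 0.23 (adjusted p = 0.000142), which ended with the floor setting too (0.25, adjusted p = 0.336). The SNAIL effect was above the shCDH1 effect by 0.69 ± 0.23 (adjusted p = 0.0211), a call that ended with any one of lacZ array 1, shCDH1 array 2, shNT array 2 or 3, or SNAIL array 1 left out (adjusted p from 0.0532 to 0.0702). TGFB1 and SNAIL differed by 0.53 ± 0.23 (adjusted p = 0.0906), which passed without parental array 1 (0.70, adjusted p = 0.02).

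MMP14 encodes a membrane-anchored MMP, the surface activator of pro-MMP2. Its probe (ILMN_1774739) read 6.40, 6.62 and 6.43 in parental and 6.84, 7.19 and 6.90 in TGFB1 arrays, a rise of 0.49 ± 0.14 (limma adjusted p = 0.00643) at the array-wide median. The call ended without TGFB1 array 2 (0.39, adjusted p = 0.0554), against shNT cells (0.34, adjusted p = 0.0524) and without normalization (0.25, adjusted p = 0.244). On log2 values with only a floor set, it turned to -0.05, while the all-gene median was -0.28. The difference was -0.01 ± 0.14 in SNAIL cells (adjusted p = 0.983) and -0.10 ± 0.14 in shCDH1 cells (0.657). The TGFB1 effect was above the shCDH1 effect by 0.59 ± 0.19 (adjusted p = 0.021). That call ended without parental array 1, TGFB1 array 2 or shCDH1 array 2 (adjusted p from 0.0509 to 0.0731). TGFB1 and SNAIL effects differed by 0.50 ± 0.19 (adjusted p = 0.0556), which passed without parental array 2, TGFB1 array 1, lacZ array 3 or SNAIL array 2 (adjusted p from 0.0225 to 0.0422).

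MMP10 encodes stromelysin 2, which cuts many matrix proteins and activates other pro-MMPs. Its probe (ILMN_1741847) read 6.86, 6.71 and 6.80 in parental and 9.99, 10.10 and 10.05 in TGFB1 arrays. It read 6.54, 6.65 and 6.47 in lacZ and 8.26, 8.13 and 8.19 in SNAIL arrays. The shNT arrays gave 6.94, 6.83 and 6.90 and the shCDH1 arrays 6.24, 5.99 and 6.31. The groups did not overlap in any of the 3 comparisons, and the lowest values of all were those of shCDH1 cells. MMP10 rose by 3.26 ± 0.11 under TGFB1 (limma adjusted p = 8.18e-19) and by 1.64 ± 0.11 in SNAIL cells (1.04e-12), and fell by 0.71 on the log2 scale (SE 0.11) in shCDH1 cells (5.35e-06). The fall lay between 2 groups near background, and ended on log2 values with only a floor (-0.24, adjusted p = 0.495). The TGFB1 effect was above the SNAIL effect by 1.62 ± 0.15 (adjusted p = 2.43e-09), and the SNAIL effect above the shCDH1 effect by 2.35 ± 0.15 (1.73e-12).

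MMP1 encodes interstitial collagenase, which opens the triple helix of fibrillar collagens. Its probe (ILMN_1726448) read 6.26, 6.35 and 6.46 in parental and 8.37, 8.47 and 8.37 in TGFB1 arrays. It read 6.77, 6.41 and 6.43 in lacZ and 7.84, 7.78 and 7.91 in SNAIL arrays. MMP1 thus followed the order of MMP10, highest in TGFB1, next in SNAIL and near background in the 4 other groups. The rise was 2.05 ± 0.11 under TGFB1 (limma adjusted p = 2.99e-14) and 1.31 ± 0.11 in SNAIL cells (1.98e-10), and the first exceeded the second by 0.74 ± 0.16 (0.00054). That excess did not pass without normalization between arrays (0.43, adjusted p = 0.23) or on log2 values with only a floor (0.22, adjusted p = 0.685). In shNT arrays MMP1 read 6.82, 6.73 and 6.66 and in shCDH1 arrays 6.41, 6.36 and 6.42, a difference of -0.34 ± 0.11 (adjusted p = 0.0179). This small fall ended without shCDH1 array 2 (adjusted p = 0.0567) or shNT array 1 (0.0766). Against parental cells shCDH1 cells stood at 0.04 (adjusted p = 0.849), and shNT cells were themselves above parental by 0.38 ± 0.11 (0.0152), which ended without parental array 1 (0.076) or shNT array 1 (0.071).

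MMP13 encodes collagenase 3, another enzyme that cuts fibrillar collagen. Its group means (ILMN_1663873) ran from 6.30 in shNT to 6.86 in parental cells. It was called in none of the 3 routes, with differences of -0.07 ± 0.13 under TGFB1 (limma adjusted p = 0.754), -0.21 ± 0.13 in SNAIL cells (0.236) and 0.02 ± 0.13 in shCDH1 cells (0.952). It was lower in shNT than in parental cells by 0.56 on the log2 scale (-0.56 ± 0.13, adjusted p = 0.00221). With shNT as the control, the TGFB1 difference turned to 0.49 (adjusted p = 0.00305), and with parental as the control the shCDH1 difference became -0.55 (0.00126) and the SNAIL difference -0.46 (0.00517). The mean was just over the array-wide median in parental cells and under it in the 5 other groups.

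**Figure D2:**
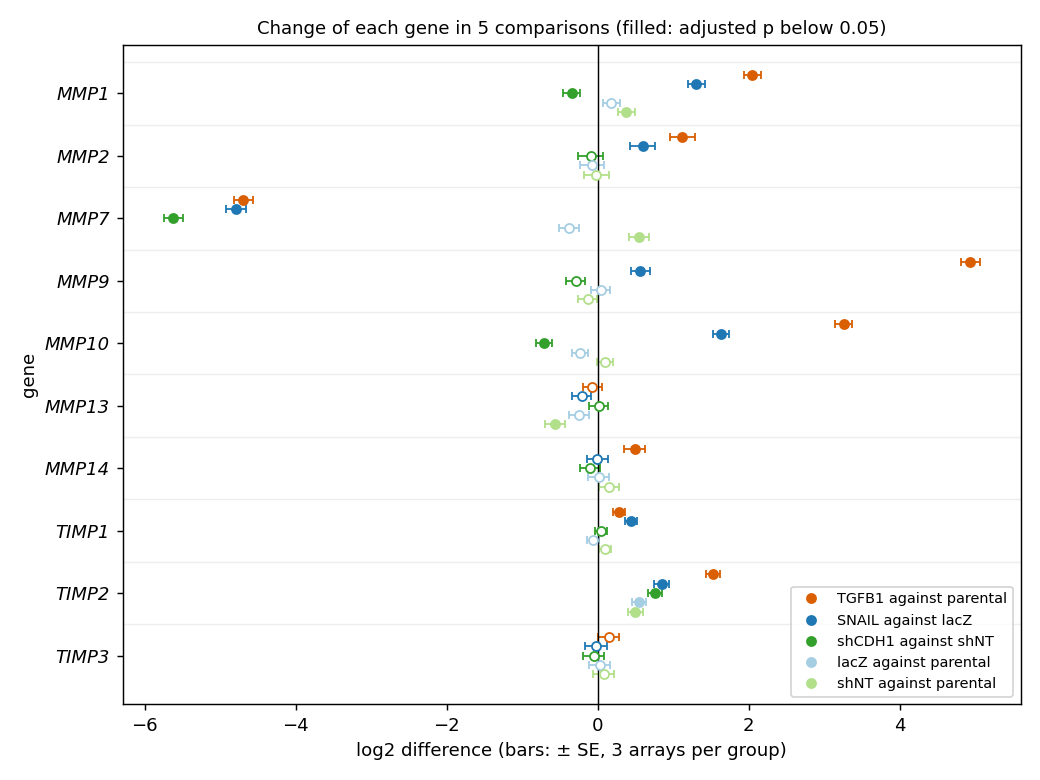
Log2 difference (horizontal axis) of each gene (vertical axis) in 5 comparisons. Points are differences, bars ± SE with 3 arrays per group, filled points passed an adjusted p below 0.05. MMP7 sits between -4.69 and -5.62 in the 3 routes, and MMP9 lies at 4.94 under TGFB1 and 0.57 in SNAIL cells.

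TIMP1 inhibits most secreted MMPs and also binds pro-MMP9. Its probe (ILMN_1711566) lay between percentiles 96.8 and 99.0 of the arrays. The parental arrays read 12.83, 12.85 and 12.72 and the TGFB1 arrays 13.05, 13.07 and 13.15. The lacZ arrays read 12.79, 12.65 and 12.78 and the SNAIL arrays 13.15, 13.25 and 13.14. The shifts were small but the groups did not overlap. TIMP1 rose by 0.29 ± 0.08 under TGFB1 (limma adjusted p = 0.00543) and by 0.44 ± 0.08 in SNAIL cells (3.90e-05). Neither rise passed without normalization (0.12, adjusted p = 0.58, and 0.35, adjusted p = 0.0948), and the TGFB1 rise did not pass against shNT cells (0.19, adjusted p = 0.0598). In shCDH1 cells the difference was 0.05 ± 0.08 (adjusted p = 0.728). The SNAIL effect was above the shCDH1 effect by 0.40 ± 0.11 (adjusted p = 0.00609), which did not pass with median centring (0.0740). The TGFB1 and shCDH1 effects differed by 0.24 ± 0.11 (0.109), which passed without shNT array 2 (0.34, adjusted p = 0.00996).

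TIMP2 inhibits MMPs and also takes part in pro-MMP2 activation by MMP14. Its brighter probe (ILMN_1721876) read 11.49, 11.65 and 11.35 in parental and 13.27, 12.97 and 12.83 in TGFB1 arrays. It read 11.97, 12.08 and 12.09 in lacZ and 12.89, 12.91 and 12.88 in SNAIL arrays. The shNT arrays gave 12.04, 11.88 and 12.07 and the shCDH1 arrays 12.71, 12.74 and 12.82. On this probe the 3 routes ended at similar levels from unequal controls. TIMP2 rose by 1.53 ± 0.09 under TGFB1 (limma adjusted p = 4.60e-13), by 0.85 ± 0.09 in SNAIL cells (3.16e-08) and by 0.76 ± 0.09 in shCDH1 cells (2.52e-07). On this probe TIMP2 was also higher in both virus controls than in parental cells, by 0.55 ± 0.09 in lacZ (adjusted p = 0.000107) and 0.50 ± 0.09 in shNT cells (0.000352). The TGFB1 effect was above the SNAIL effect by 0.68 ± 0.13 (adjusted p = 0.000222) and the shCDH1 effect by 0.77 ± 0.13 (5.60e-05), neither of which passed without normalization between arrays (0.121 and 0.216).

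The dimmer TIMP2 probe (ILMN_1749078) did not follow in SNAIL cells. It read 8.23, 8.17 and 8.30 in lacZ and 8.27, 7.95 and 8.59 in SNAIL arrays, with overlapping groups and a difference of 0.04 ± 0.15 (limma adjusted p over all probes 0.91). In shCDH1 cells it read 9.65, 9.61 and 9.45 against 7.89, 8.27 and 8.51 in shNT cells, a rise of 1.35 ± 0.15 (3.44e-08). Under TGFB1 it rose by 1.53 ± 0.15 (3.45e-09), equal in size to the brighter probe. By this probe the SNAIL effect was below the shCDH1 effect (-1.31 ± 0.21, adjusted p = 2.34e-05), where the brighter probe gave 0.09 ± 0.14 (0.773). The rise of TIMP2 in SNAIL cells and over the control viruses (0.25 ± 0.15 and 0.24 ± 0.15, adjusted p = 0.457 and 0.382) therefore rests on 1 of 2 probes. Which transcripts each probe reads was not analysed here.

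**Figure D3:**
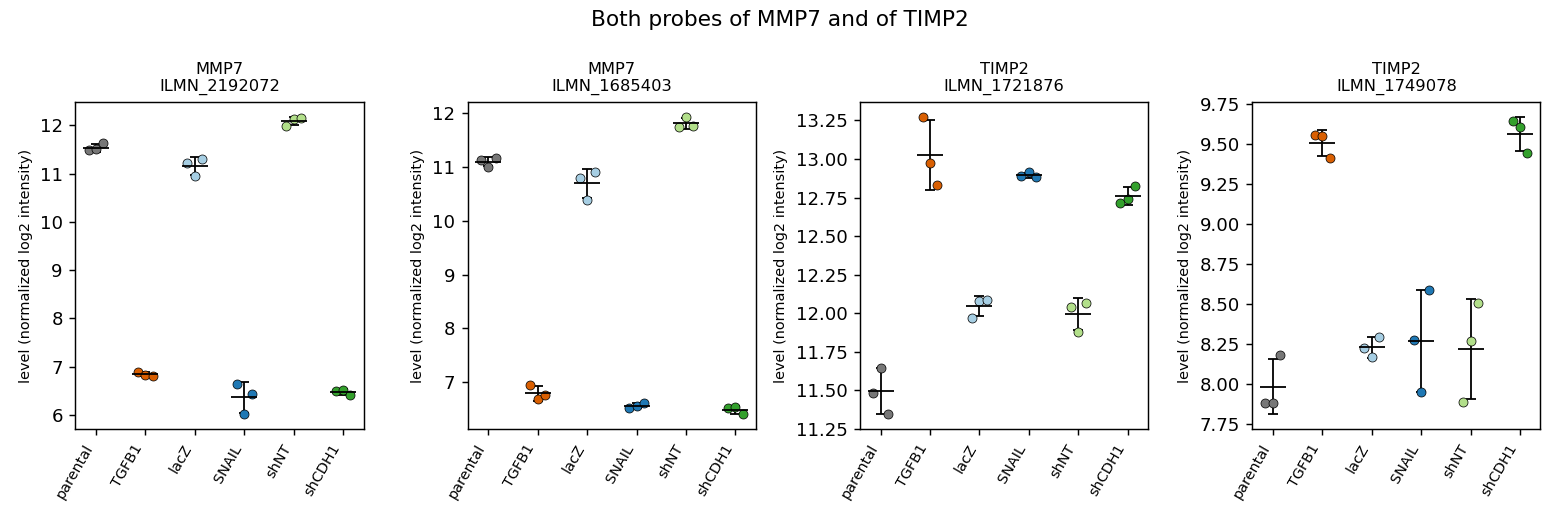
Normalized log2 intensity (vertical axes, a separate scale for each probe) in the 6 groups (horizontal axis) for both probes of MMP7 and of TIMP2. Points are arrays and bars the mean ± SD of 3 arrays. The MMP7 probes follow each other, while the TIMP2 probes part in SNAIL cells, at 12.89 ± 0.02 on the brighter and 8.27 ± 0.32 on the dimmer.

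TIMP3 is the inhibitor that binds to the extracellular matrix. Its probe (ILMN_1701461) had group means from 6.11 to 6.26, under the array-wide median in all 18 arrays. The differences were 0.15 ± 0.14 under TGFB1, -0.02 ± 0.14 in SNAIL cells and -0.05 ± 0.14 in shCDH1 cells (limma adjusted p from 0.501 to 0.943). A change within background was not detectable with this probe.

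Among the 6 groups, the order of levels separated the genes further. For MMP1, MMP9 and MMP10, TGFB1 cells were highest and differed from SNAIL cells, the next in order (0.56 ± 0.11, 4.33 ± 0.13 and 1.85 ± 0.11), and SNAIL cells differed from the group below them (1.11 ± 0.11, 0.57 ± 0.13 and 1.30 ± 0.11). Neighbours further down did not differ for MMP1 and MMP9, and for MMP10 only lacZ and shCDH1 did (0.37 ± 0.11, limma adjusted p = 0.00798). For MMP7, shNT was above parental cells, parental and lacZ did not differ (0.38 ± 0.13, adjusted p = 0.0525), and TGFB1 was above shCDH1 cells by 0.38 ± 0.13 (0.0232), both near background. On the brighter TIMP2 probe the 3 routes did not differ between neighbours (adjusted p = 0.318 and 0.296), the 2 virus controls did not differ (0.792), and both stood above parental cells. For MMP2, TGFB1 was above SNAIL cells (0.60 ± 0.16, adjusted p = 0.00379), SNAIL above parental cells (0.52 ± 0.16, 0.0101), and the remaining neighbours did not differ. No neighbours of MMP13, MMP14, TIMP1 or TIMP3 differed.

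The virus controls were themselves compared with parental cells. In lacZ against parental cells 1 rose and 9 were not called, where 7.04% of all genes were higher and 6.72% lower. In shNT against parental cells 3 rose (MMP1, MMP7 and TIMP2), 1 fell (MMP13) and 6 were not called, where 10.2% of all genes were higher and 10.6% lower. The mesenchymal gene CDH2 (N-cadherin) stood at 6.36 in parental, 10.56 in lacZ and 8.17 in shNT cells and was called higher in both controls, while VIM (vimentin) stood at 10.27, 12.86 and 10.45 and was called in lacZ cells. Between lacZ and parental cells MMP9 differed by 0.04 ± 0.13 (limma adjusted p = 0.908) and MMP10 by -0.23 ± 0.11 (0.179). The comparisons of TGFB1, lacZ and shNT with parental cells share the parental arrays. Tests of the differences between routes called 4 of the 10 genes for TGFB1 minus SNAIL (29.3% of all genes), 7 for TGFB1 minus shCDH1 (30.1%) and 6 for SNAIL minus shCDH1 (31.9%), each of them with the higher value in the first-named route.

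MMP7, MMP10, MMP1 and MMP13 lie in a cluster on chromosome 11 with 5 other MMP genes. In the order of GRCh38.p14 these are MMP7, MMP20, MMP27, MMP8, MMP10, MMP1, MMP3, MMP12 and MMP13. Under TGFB1, 2 of the 9 rose, 1 fell and 6 were not called. In SNAIL cells 4 rose, 1 fell and 4 were not called, and in shCDH1 cells 0 rose, 4 fell and 5 were not called. The all-gene shares called higher and lower in each route are those given above. Of the shCDH1 falls, only that of MMP7 started far above the array-wide median (12.09 in shNT, 6.47 in shCDH1 cells). MMP10 (6.89 to 6.18), MMP1 (6.74 to 6.39) and MMP12 (6.20 to 5.85) fell between groups near or under that median. The SNAIL route added MMP12, macrophage elastase, which went from 6.13 to 9.84 (3.71 ± 0.13, limma adjusted p = 3.16e-18), and MMP3, stromelysin 1, which went from 6.78 to 8.75 (1.97 ± 0.17, 1.66e-10). Under TGFB1 these differed by 0.13 ± 0.13 (0.527) and -0.05 ± 0.17 (0.882). Neighbouring genes therefore took different directions and were called in different routes. MMP20, MMP27 and MMP8 were called in none of the 3 routes and had group means under the array-wide median.

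**Figure D4:**
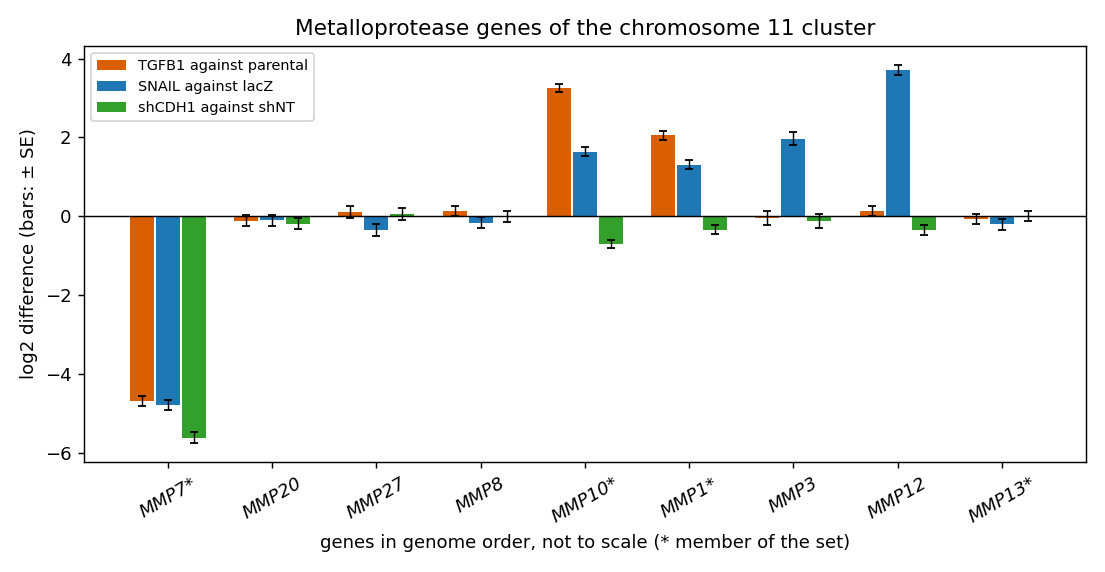
Log2 difference (vertical axis, error bars ± SE, 3 arrays per group) of 9 metalloprotease genes in their order on chromosome 11 (horizontal axis, not to scale), with 1 bar for each of the 3 routes. MMP7 falls in all 3, MMP10 and MMP1 rise with TGFB1 and SNAIL, and MMP3 (1.97) and MMP12 (3.71) rise with SNAIL.

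Outside the 10 genes, 16 other MMPs were measured. Under TGFB1, 1 rose and 3 fell, where 15.5% of all genes were higher and 15.7% lower. In SNAIL cells 2 rose and 3 fell (all genes 19.6% and 17.0%), and in shCDH1 cells 0 rose and 4 fell (all genes 17.9% and 16%), with list medians of -0.09, -0.03 and -0.15. MMP24, a membrane-type MMP, was lower under TGFB1 (-0.91 ± 0.13), in SNAIL cells (-1.71 ± 0.13) and in shCDH1 cells (-1.87 ± 0.13). MMP15, also membrane-type, was lower in the same order by -0.53 ± 0.14, -0.52 ± 0.14 and -1.09 ± 0.14. Under TGFB1, MMP11, stromelysin 3, rose by 0.53 ± 0.14 while MMP28, epilysin, was lower in all 3 routes (-0.53 ± 0.13, -0.33 ± 0.13 and -0.40 ± 0.13). Several of these levels lay near or under the array-wide median. MMP28 went from 6.93 to 6.40 under TGFB1 and from 6.82 to 6.49 in SNAIL cells, and from 7.61 to 7.21 in shCDH1 cells. MMP11 went from 6.66 to 7.19, and MMP15 ended at 6.71 in SNAIL and 6.75 in shCDH1 cells.

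Of 6 other inhibitors measured, 1 rose and 2 fell under TGFB1, and 4 rose and 1 fell in SNAIL cells. In shCDH1 cells 2 rose and 1 fell. The all-gene shares higher and lower were 15.5% and 15.7% under TGFB1, 19.6% and 17.0% in SNAIL and 17.9% and 16% in shCDH1 cells. SPOCK1, a proteoglycan of the testican family, rose in all 3 routes, by 3.24 ± 0.09 under TGFB1, 0.50 ± 0.09 in SNAIL and 0.34 ± 0.09 in shCDH1 cells. TFPI2, a serine protease inhibitor that can also block MMPs, fell in TGFB1, SNAIL and shCDH1 cells (-1.19 ± 0.14, -2.31 ± 0.14 and -1.67 ± 0.14). TIMP4, the remaining TIMP gene, fell by 0.93 on the log2 scale under TGFB1 and rose by 0.85 ± 0.12 in SNAIL and 0.94 ± 0.12 in shCDH1 cells. Its controls were unequal, at 8.39 in parental, 7.35 in lacZ and 7.63 in shNT cells. TGFB1 cells read 7.46, near the virus controls, while SNAIL (8.20) and shCDH1 cells (8.57) read near parental cells. The opposite signs therefore depend on the control used. A2M, a broad protease trap, rose by 2.48 ± 0.12 in SNAIL cells, and RECK, a membrane-anchored MMP inhibitor, rose by 1.28 ± 0.14.

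Enzymes that activate pro-MMPs also differed. Of 9 genes of the convertases and the plasminogen system measured, 4 rose and 1 fell under TGFB1. In SNAIL cells 2 rose and 3 fell, and in shCDH1 cells 3 rose and 5 fell. The all-gene shares higher and lower were 15.5% and 15.7% under TGFB1, 19.6% and 17.0% in SNAIL and 17.9% and 16% in shCDH1 cells. PLAUR, the urokinase receptor, rose by 0.94 ± 0.16 under TGFB1 and fell in SNAIL (-0.73 ± 0.16) and shCDH1 cells (-3.29 ± 0.16). PCSK5, a proprotein convertase, rose by 4.29 ± 0.13 in shCDH1 cells. PLAT, tissue plasminogen activator, rose by 0.38 ± 0.12, 2.55 ± 0.12 and 1.20 ± 0.12 in the 3 routes.

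Of 12 surface partners and clearance receptors, 7 rose and 3 fell under TGFB1. In SNAIL cells 5 rose and 3 fell, and in shCDH1 cells 4 rose and 3 fell. The all-gene shares higher and lower were 15.5% and 15.7% under TGFB1, 19.6% and 17.0% in SNAIL and 17.9% and 16% in shCDH1 cells. LCN2, a lipocalin that binds MMP9, fell in all 3 routes (-2.51 ± 0.10, -6.01 ± 0.10 and -7.05 ± 0.10), including the 2 in which MMP9 rose. THBS1, thrombospondin 1, which binds MMPs, rose by 2.43 ± 0.16, 1.74 ± 0.16 and 2.50 ± 0.16. Of 17 AP-1, ETS, RUNX and related factors, 11 rose and 2 fell under TGFB1, beside the same all-gene shares. In SNAIL cells 3 rose and 4 fell, and in shCDH1 cells 6 rose and 3 fell. The medians were 0.56, 0.00 and 0.08. FOSB, an AP-1 subunit, rose in all 3 routes (1.35 ± 0.14, 0.75 ± 0.14 and 1.13 ± 0.14), and FOS fell under TGFB1 (-1.45 ± 0.24), was not called in SNAIL cells (-0.48 ± 0.24) and rose in shCDH1 cells (0.80 ± 0.24). RUNX2, a regulator of MMP13 in bone, rose under TGFB1 (1.03 ± 0.11) and in shCDH1 cells (0.51 ± 0.11) and fell in SNAIL cells (-0.32 ± 0.11), while MMP13 was called in none of the 3.

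Genes with the pattern most like each gene were taken as those with the smallest root mean square difference over the 6 group means, after centring, among 5204 genes whose group means spanned at least 1 log2 unit. Of the 10 genes, 6 spanned that much. SPINK1 was closest to MMP7 (0.27 log2 units), then SOX2 (0.34) and SCNN1A (0.45). GPR183 was closest to MMP9 (0.22), then LHB (0.33) and AMTN (0.43). For MMP10 they were SUN3 (0.30), COL15A1 (0.31) and FAM174B (0.32), and for MMP1 LAYN (0.10), HPCAL4 (0.15) and MELTF (0.16). For MMP2 they were ECHDC3 (0.07), LTBP4 (0.08) and VEPH1 (0.10), and for the brighter TIMP2 probe TSPAN9 (0.06), HYI (0.09) and GDPD5 (0.10). These distances describe 6 group means, so a gene of small range has small distances.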

How the data were processed

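The deposited table holds 47323 probes by 18 arrays. Per the labels, biotinylated complementary RNA was hybridized to Illumina arrays, and the deposited values are linear intensities whose medians differ between arrays. The scanner, its software and any background step are not given in the sources used here. With limma 3.58.1 in R 4.3.3, normexp background correction (offset 50) was followed by log2 and by quantile normalization over all arrays. Probes with a value of 0 (2 probes, 3 values) were left out. Each gene was represented by its probe of highest mean, named from the platform annotation, and member symbols were matched by Entrez identifier to RefSeq (GRCh38.p14, 10 of 10).

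One model of 6 group means (12 residual degrees of freedom, intensity trend) gave 5 comparisons and 3 differences of effects, two-sided. The number of arrays limits the precision. The script was tested on simulated data. The members, the 7 pathway lists and the marker lists were chosen with earlier results of these data known. Named genes were the 10 members, up to 4 called genes of largest change per pathway list, of which the text names a part, the 3 closest patterns of each member that spanned 1 log2 unit, and the genes between members on chromosome 11, which were added later. Alternatives were other background corrections, normalizations, filters, probe rules, moderation, replicate handling and controls, and each array left out.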

Additional observations from a re-analysis of the deposited data

Results flagged for a closer look

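These results have effects that differ between routes by the test of the difference (limma, adjusted p below 0.05 over all genes). No group of 3 arrays was tested for a single outlying array.

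TGFB1 and SNAIL effects differed by 4.37 for MMP9, 1.62 for MMP10, 0.74 for MMP1 and 0.68 for TIMP2 on the log2 scale. TGFB1 and shCDH1 effects differed by 5.23 for MMP9, 3.97 for MMP10, 2.39 for MMP1, 1.22 for MMP2, 0.93 for MMP7, 0.77 for TIMP2 and 0.59 for MMP14. SNAIL and shCDH1 effects differed by 2.35 for MMP10, 1.65 for MMP1, 0.86 for MMP9, 0.83 for MMP7, 0.69 for MMP2 and 0.40 for TIMP1. For MMP7 the level after each route was near or under background, so these differences do not rank its falls. The TIMP2 difference between TGFB1 and shCDH1 cells was 0.18 by its dimmer probe (adjusted p = 0.671 over all probes).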

How the results depend on the processing

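Over the alternatives, 1569 of 1658 values of the 10 genes kept their side of the threshold, 60 lost a call, 21 gained one and 8 turned their sign with a call on at least one side. The 1569 include values called on neither side, whose sign could turn (TIMP3 under TGFB1 ran from -0.20 to 0.28). The changes named here held their call under every alternative run: MMP1, MMP7, MMP9, MMP10 and TIMP2 under TGFB1 (ranges 0.98 to 2.67, -5.24 to -3.92, 3.79 to 5.44, 2.17 to 3.75 and 0.98 to 1.63), MMP1, MMP7 and MMP10 in SNAIL cells (0.77 to 1.74, -5.57 to -3.79 and 1.03 to 2.11), and MMP7 and TIMP2 in shCDH1 cells (-6.31 to -4.53 and 0.70 to 1.35). Signal near background limits MMP2, MMP13, MMP14 and TIMP3.

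With no normalization between arrays, members called were 0 for lacZ and 1 for shNT against parental, 2 for TGFB1 minus SNAIL, 4 for TGFB1 minus shCDH1 and 3 for SNAIL minus shCDH1, and genes called were 4641 for SNAIL, 4208 for shCDH1, 1091 for lacZ, 1946 for shNT and 3624 for SNAIL minus shCDH1. On floored log2 values alone, members called were 5 for TGFB1, 4 for SNAIL, 2 for shCDH1, 0 for lacZ, 1 for shNT, 2 for TGFB1 minus SNAIL, 3 for TGFB1 minus shCDH1 and 2 for SNAIL minus shCDH1. Genes called there were 3599 for SNAIL, 3384 for shCDH1, 711 for lacZ, 1652 for shNT, 2999 for TGFB1 minus SNAIL and 2830 for SNAIL minus shCDH1. The share of upward calls on these floored values was 13.1% for TGFB1 (41.5% with median centring), 43.3% for SNAIL, 63.1% for shCDH1, 13.1% for shNT (29.9% with median centring), 26.2% for TGFB1 minus SNAIL, 13.1% for TGFB1 minus shCDH1 and 35.8% for SNAIL minus shCDH1, beside 49.6%, 53.5%, 52.8%, 48.9%, 48.0%, 49.8% and 53.0% in the reported fit.

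Reversals were MMP14 on floored values (-0.055 under TGFB1, adjusted p = 0.772, and -0.13 for TGFB1 minus shCDH1, 0.629), TIMP2 for SNAIL minus shCDH1 with the mean of its probes (-0.61, 0.00144) or the probe of largest variance (-1.31, 2.32e-05), MMP13 under TGFB1 against shNT (0.49), and in shCDH1 cells MMP1 (0.039) and MMP13 (-0.55) against parental and MMP13 (-0.28) against the mean of the 3 control groups. The TIMP2 reversal follows from the probe used. Those of MMP13 and MMP1 came with a change of control, where shNT differed from parental cells by -0.56 ± 0.13 for MMP13 and 0.38 ± 0.11 for MMP1. The cause of the MMP14 reversals was not tested.

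Members called for lacZ against parental became 2 with quantile-normalized floored values, genes above the median probe, the mean of probes, the compared arrays alone, or without lacZ replicate 3, MMP7 being added, and 0 with the probe of largest variance. With 1 array left out, members called ranged from 7 to 8 for TGFB1, 7 to 7 for SNAIL, 3 to 5 for shCDH1, 1 to 2 for lacZ, 3 to 4 for shNT, 4 to 5 for TGFB1 minus SNAIL, 6 to 8 for TGFB1 minus shCDH1 and 5 to 6 for SNAIL minus shCDH1.

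With the replicate number as a block, MMP7 was called between lacZ and parental cells (-0.38, adjusted p = 0.0417), making 2 members, and the block changed no other member's call. Genes called went from 6245 to 6455 for TGFB1, 7340 to 7522 for SNAIL and 6803 to 6999 for shCDH1. Deviations of equally numbered arrays correlated at -0.13 to 0.22 across genes, not all over 0.1, so the numbers were not taken to pair the arrays. Averaging arrays that share a description number left 2 per group. There MMP1 lost its call in shCDH1 cells (-0.32, limma adjusted p = 0.0608) and for shNT against parental (0.34, 0.0749). MMP2 gained a call for TGFB1 minus SNAIL (0.67, 0.0242).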

Other observations

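Cytokines and growth factors known to raise MMP genes were read as a further list, with 12 measured. Under TGFB1, 8 rose and 0 fell (median 0.72 beside 0.00 over all genes). In SNAIL cells 5 rose and 3 fell, and in shCDH1 cells 3 rose and 3 fell. The all-gene shares higher and lower were 15.5% and 15.7% under TGFB1, 19.6% and 17.0% in SNAIL and 17.9% and 16% in shCDH1 cells. IL6 rose by 4.56 ± 0.11 under TGFB1 and by 0.64 ± 0.11 in SNAIL cells, and fell by 3.75 on the log2 scale in shCDH1 cells. The IL6 controls were unequal, at 8.38 in parental, 9.62 in lacZ and 10.26 in shNT cells. The shCDH1 level was 6.51, under the array-wide median. IL1A rose by 2.97 ± 0.13 under TGFB1 and fell by 3.28 on the log2 scale in shCDH1 cells, and IL1B rose in SNAIL cells (0.59 ± 0.15) and fell in shCDH1 cells (-3.17 ± 0.15). The IL1A level was 9.97 in parental, 7.45 in lacZ and 10.23 in shNT cells. The IL1B level was 9.10 in parental, 6.79 in lacZ and 7.38 in SNAIL cells. SNAIL cells thus stood above their lacZ control but below parental cells. HBEGF, a ligand of EGFR, rose in all 3 routes, by 2.23 ± 0.15, 1.47 ± 0.15 and 1.37 ± 0.15.

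Of 12 matrix substrates measured, 6 rose and 1 fell under TGFB1, and 4 rose and 3 fell in SNAIL cells. In shCDH1 cells 2 rose and 1 fell. The all-gene shares higher and lower were 15.5% and 15.7% under TGFB1, 19.6% and 17.0% in SNAIL and 17.9% and 16% in shCDH1 cells. COL4A1, a chain of the type IV collagen of basement membranes, rose by 3.40 ± 0.11 under TGFB1 and by 1.84 ± 0.11 in shCDH1 cells. COL7A1, the anchoring fibril collagen, rose by 2.93 ± 0.11 under TGFB1 and by 0.76 ± 0.11 in SNAIL cells. LAMB3, a laminin chain, rose by 1.54 ± 0.13 under TGFB1 and fell by 2.25 in SNAIL and 1.90 in shCDH1 cells on the log2 scale. COL3A1, a substrate of MMP1, rose by 6.55 ± 0.12 in SNAIL cells and by 0.54 ± 0.12 under TGFB1. SPP1, osteopontin, fell by 6.20 in SNAIL cells and by 2.09 under TGFB1 on the log2 scale. Its controls were unequal, at 13.03 in lacZ and 8.84 in parental cells, while SNAIL cells read 6.83 and TGFB1 cells 6.75.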
